A study of Mus musculus with 6 samples.

Results

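Retinoic acid is made from vitamin A inside cells, carried in the cytoplasm by small binding proteins and read in the nucleus by receptors that sit on DNA as heterodimers. Retinaldehyde dehydrogenases of the ALDH1A group make it, CYP26 enzymes oxidise it for removal, CRABP1 and CRABP2 carry it, and the receptors RARα, RARβ and RARγ bind it together with an RXR partner. In the embryo, the acid is known for patterning the limb, hindbrain and axis, and mesenchymal cells are among its sources and its targets.

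The 9 genes described here are Crabp1, Crabp2, Rara, Rarb, Rarg, Aldh1a1, Aldh1a2, Aldh1a3 and Cyp26b1, taken by gene symbol from a table of 24062 symbols. All 9 were in the table, and all 9 passed the filter on low counts that left 13990 genes. The list was drawn up because Crabp1 was lower in the comparison below, so the difference in Crabp1 is given as a description with no test. The other 8 genes joined it by their place in the pathway, with earlier results of these data known.

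RNA was sequenced from mouse embryonic fibroblasts, which are primary connective tissue cells, from C57BL/6 embryos. The p27OE group had 3 libraries from cells given p27, the kinase inhibitor encoded by Cdkn1b, by lentivirus, and was harvested at day 10. The EV control group had 3 libraries, also of day 10, and the labels do not spell out EV. Only the titles of EV control name a dataset number, and whether both groups were prepared and sequenced side by side is not stated, so preparation and treatment cannot be told apart. The labels contradict each other on senescence: the p27OE titles and the treatment text call the cells senescent, the series text does not. Nothing in the labels says that the samples came from separate embryos or cultures, so a p-value here measures the spread between libraries, which may in part be technical.

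Library totals were 43621464 to 48014367 counts in p27OE and 39183624 to 61219345 in EV control. Cdkn1b was at 166.6, 232.3 and 336.9 counts per 1000000 counts of the scaled library (CPM) in p27OE 1, 2 and 3, against 43.9, 31.5 and 32.3 CPM in EV control 1, 2 and 3, higher in every p27OE library. The 10 fibroblast markers summed to 46060 to 48280 CPM in p27OE and 41540 to 59580 CPM in EV control, and each of the 9 lists for other cell types summed to at most 772.5 CPM in every library. The libraries differed within both groups in the summed CPM of 4 Y-linked genes (Ddx3y, Eif2s3y, Kdm5d and Uty), which was 1.95, 57.2 and 137.3 in p27OE 1, 2 and 3, and 0.13, 126.1 and 124.4 in EV control 1, 2 and 3. Values are therefore also given within the low libraries (p27OE 1 and EV control 1) and the high ones (p27OE 3, EV control 2 and 3). They stand beside the pooled values with no test, since p27OE has 1 library at each level and EV control 1 at the low one. The intermediate p27OE 2 is in neither level. Cdkn1b itself differed by 1.92 on the log2 scale at the low level and by 3.4 at the high one. Differences between the levels therefore cannot be told apart from differences in Cdkn1b.

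RAR and RXR pairs bind direct repeats of a short half-site, and the best known of these repeats stand in the promoters of Rarb and of Cyp26a1, another retinoic acid hydroxylase gene. The 100 bases before the RefSeq transcription start of both genes are shown because they carry this repeat, and those of Crabp1 because its values prompted the list. In Rarb and Cyp26a1, capitals mark a direct repeat of the half-site AGGTCA, its variant AGTTCA, or either of these with G as the first letter, with 5 bases between the copies, on either strand. In Crabp1, capitals mark the GC box GGGCGG on either strand. All are from GRCm38.p6 and read 5′ to 3′ on the strand of the gene.
Rarb, chr14:16575477-16575576, minus strand: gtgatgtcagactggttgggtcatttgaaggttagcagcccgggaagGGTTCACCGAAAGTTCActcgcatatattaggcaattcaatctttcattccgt
Cyp26a1, chr19:37697708-37697807, plus strand: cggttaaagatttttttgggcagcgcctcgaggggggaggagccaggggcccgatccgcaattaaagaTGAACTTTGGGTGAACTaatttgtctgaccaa
Crabp1, chr9:54764648-54764747, plus strand: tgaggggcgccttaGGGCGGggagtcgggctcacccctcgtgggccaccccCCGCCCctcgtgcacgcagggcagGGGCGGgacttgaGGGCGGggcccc

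The repeat lay 53 to 37 bases before the Rarb start and 32 to 16 bases before the Cyp26a1 start, where it read on the opposite strand. Windows from 250 bases before to 50 after a start were held for 7 of the 9 genes, 12 windows in all; Crabp2 and Aldh1a3 had none. The repeat with a 5-base spacer was in 1 of these 12 windows, that of Rarb, and in 0.0974% of all 32851 windows. Crabp1 had 5 GC boxes in its window, a number that 2.71% of all windows reached, and no TATAAA, a sequence found in 13.6% of them. A match of letters is a description and not a binding site.

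**Figure D1:**
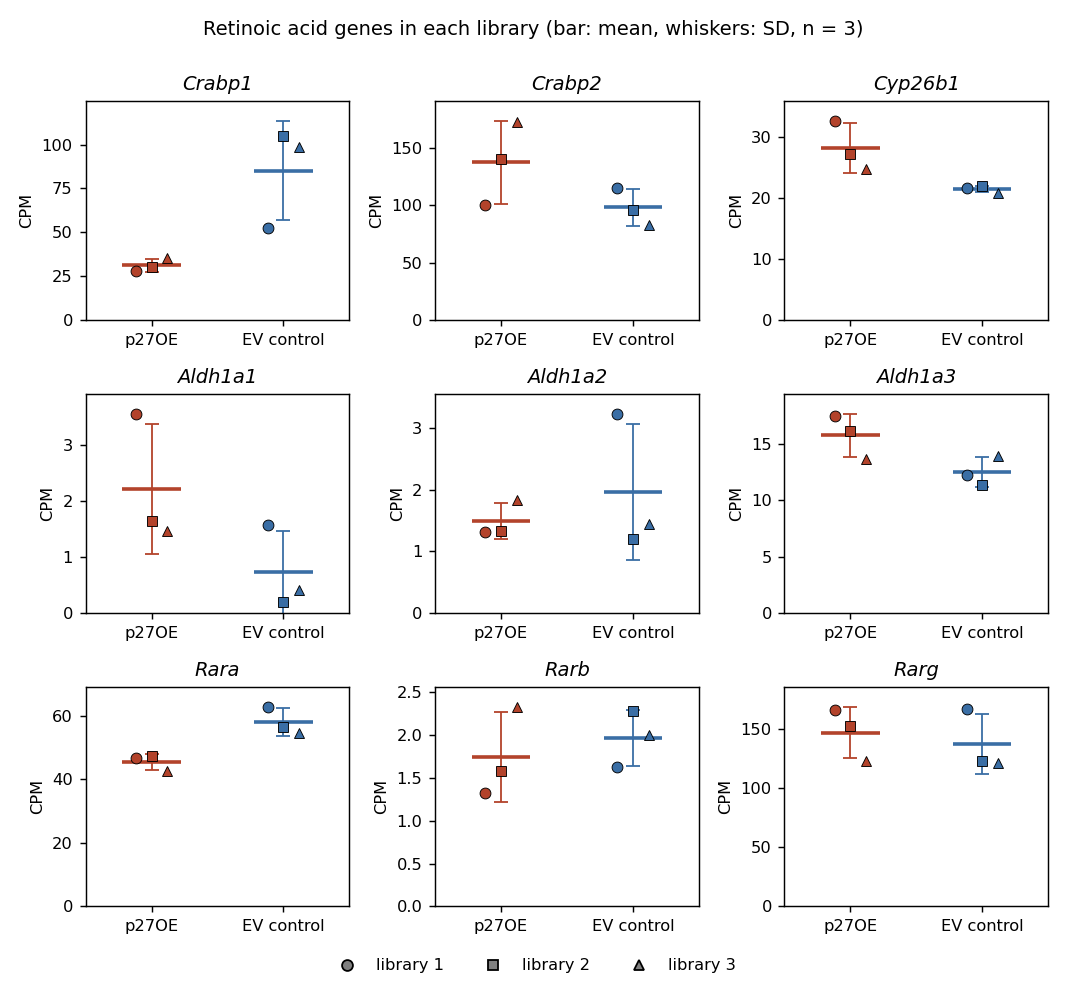
Levels in CPM (linear axes from 0) of the 9 genes in each library, p27OE left and EV control right, with the mean as a bar and the SD as whiskers (n = 3 each); marker shapes give the library number. Crabp1 lay at 28.05 to 35.5 CPM in p27OE and at 52.7 to 104.6 CPM in EV control, while Rarg had nearly the same range in both groups.

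Crabp1 encodes the binding protein that is thought to hold retinoic acid in the cytoplasm and to hand it to breakdown. Crabp1 was at 28.05, 30.1 and 35.5 CPM in p27OE 1, 2 and 3, against 52.7, 104.6 and 98.3 CPM in EV control 1, 2 and 3. All 3 p27OE libraries lay below all 3 EV control libraries, and EV control 1 was the lowest of its group by a wide gap. The mean was 31.2 ± 3.87 CPM in p27OE and 85.2 ± 28.3 CPM in EV control (SD, n = 3 each). That is a log2 fold change of −1.45, or 2.73-fold lower in p27OE. The difference was −0.91 on the log2 scale between the libraries of low Y-linked level and −1.51 between those of high level. The shared sign follows from groups that do not overlap, in a gene that chose the list, and is no support. Crabp1 occupies 54764748 to 54773110 on chromosome 9 of GRCm38, and no annotated exon of another gene overlaps its exons.

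Crabp2 encodes the partner that carries the acid into the nucleus to the receptors, and its values did not mirror those of Crabp1 in every library. Crabp2 was at 100.1, 140.3 and 172.0 CPM in p27OE 1, 2 and 3, against 115.3, 96.05 and 82.99 CPM in EV control 1, 2 and 3. The groups overlapped, because p27OE 1 lay below EV control 1 and above the other two controls. Means were 137.5 ± 36.03 CPM in p27OE and 98.1 ± 16.2 CPM in EV control (SD, n = 3 each), with a log2 fold change of 0.49 ± 0.22 (SE), with an edgeR adjusted p of 0.215. The difference was −0.20 between the libraries of low Y-linked level and 0.95 between those of high level, and these opposite signs were not tested. With both libraries numbered 1 left out, Crabp2 was called, at a log2 fold change of 0.78 (edgeR adjusted p = 0.027).

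Set per kilobase of exon, so that the pair can be compared, Crabp1 made up 31.6%, 26.2% and 25.4% of the summed level of both carriers in p27OE 1, 2 and 3. Its share was 42.97%, 64.2% and 66.1% in EV control 1, 2 and 3. Crabp2 was thus the more abundant transcript of the pair in every p27OE library and in EV control 1, and Crabp1 in EV control 2 and 3. The ratio of Crabp2 to Crabp1 per kilobase was 2.64 ± 0.417 in p27OE and 0.799 ± 0.458 in EV control (SD, n = 3 each). The summed level of both was 142.9 ± 31.9 CPM per kilobase in p27OE and 180.5 ± 25.5 in EV control, with overlapping ranges of 110.7 to 174.4 and 152.9 to 203.1. These ratios hold the value that chose the list, so no test is given for them.

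**Figure D2:**
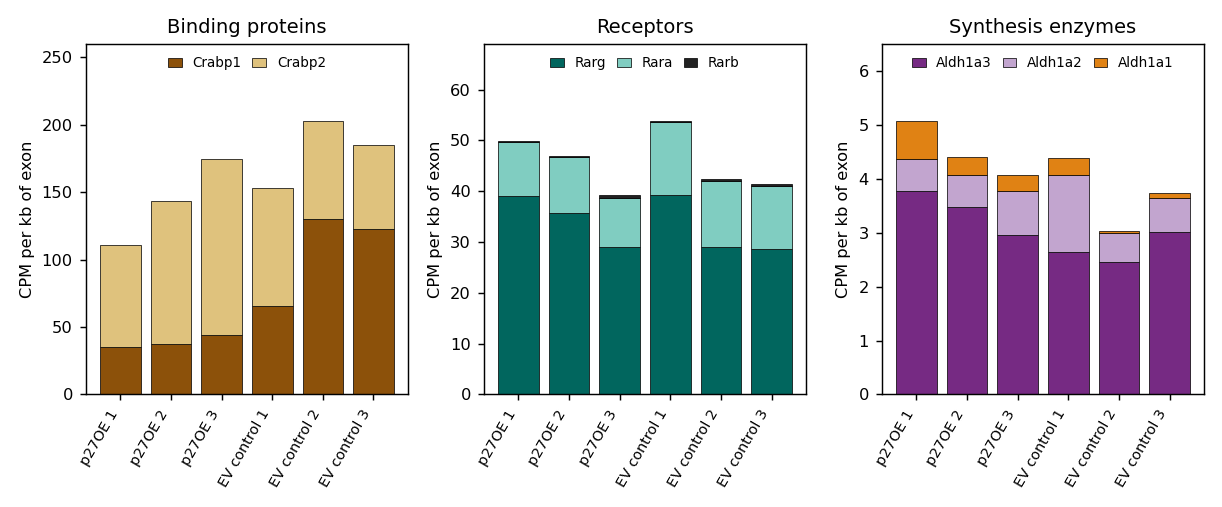
Stacked levels in CPM per kilobase of exon (linear axes from 0) of the carriers, the receptors and the synthesis enzymes in each library, p27OE left and EV control right. Crabp1 took 25.4% to 31.6% of the carrier bar in p27OE and 42.97% to 66.1% in EV control, Rarg took the larger part of the receptor bar and Aldh1a3 that of the enzyme bar in every library.

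Among the receptors, Rara was the one whose groups did not overlap. Rara, which encodes the broadly expressed RARα, was at 46.6, 47.35 and 42.6 CPM in p27OE 1, 2 and 3, against 62.8, 56.6 and 54.4 CPM in EV control 1, 2 and 3. Every p27OE library lay below every EV control library, with a small spread in both groups. The mean was 45.5 ± 2.58 CPM in p27OE and 57.95 ± 4.36 CPM in EV control (SD, n = 3 each), a log2 fold change of −0.35 ± 0.08 (SE) that did not pass (edgeR adjusted p = 0.0693). The differences at low and at high Y-linked level were close to each other, −0.43 and −0.38. It was called when the Y-linked level entered the model as a term (edgeR adjusted p = 0.00346), with the replicate number as a block (edgeR adjusted p = 0.0272) and by DESeq2 (adjusted p = 0.00608).

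Rarg encodes RARγ, the receptor known from skin and cartilage precursors. Rarg was at 166.1, 152.5 and 123.4 CPM in p27OE 1, 2 and 3, against 166.9, 123.5 and 121.7 CPM in EV control 1, 2 and 3. The ranges nearly coincided, and the highest library of each group was the one numbered 1. Its log2 fold change was 0.10 ± 0.17 (SE), with an edgeR adjusted p of 0.74, and the differences at low and at high Y-linked level were −0.01 and 0.01.

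Rarb, which encodes RARβ and is itself induced by retinoic acid through the repeat shown above, was expressed at a low level. Rarb was at 1.32, 1.58 and 2.33 CPM in p27OE 1, 2 and 3, against 1.625, 2.28 and 1.997 CPM in EV control 1, 2 and 3, from 61 to 138 counts a library. The groups overlapped, and the library numbered 1 was the lowest in each. The log2 fold change was −0.18 ± 0.29 (SE), with an edgeR adjusted p of 0.738. Exons of Top2b on the opposite strand overlap those of Rarb, and with no strand setting given in the sources used here, reads of the overlap cannot be assigned.

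Per kilobase of exon, Rarg made up 76.1 ± 2.07% of the summed receptor level in p27OE and 70.02 ± 2.35% in EV control (SD, n = 3 each). Rara made up 23.1 ± 1.75% in p27OE and 29.1 ± 2.12% in EV control, and Rarb 0.757 ± 0.33% in p27OE and 0.837 ± 0.235% in EV control. The Rara share was 21.4% to 24.9% in p27OE and 26.7% to 30.6% in EV control, with no overlap, while the summed level of the receptors was 45.3 ± 5.55 CPM per kilobase in p27OE and 45.9 ± 6.94 in EV control.

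Of the 3 synthesis genes, Aldh1a1 and Aldh1a2 were low and Aldh1a3 was the main one. By level per kilobase among all genes tested, Aldh1a3 stood at the 42.4th percentile in p27OE and the 37.7th in EV control. Aldh1a3 was at 17.4, 16.1 and 13.7 CPM in p27OE 1, 2 and 3, against 12.2, 11.4 and 13.9 CPM in EV control 1, 2 and 3. The groups overlapped by a narrow margin, since p27OE 3 lay just below EV control 3. The log2 fold change was 0.33 ± 0.13 (SE), with an edgeR adjusted p of 0.176, with 0.51 at low and 0.12 at high Y-linked level.

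Aldh1a1, known from the liver, the retina and stem cells, had the widest error of the 9 genes. Aldh1a1 was at 3.55, 1.64 and 1.47 CPM in p27OE 1, 2 and 3, from 164, 80 and 61 counts, against 1.575, 0.198 and 0.417 CPM in EV control 1, 2 and 3, from 63, 12 and 19 counts. The library numbered 1 was the highest in each group, and EV control 1 lay between p27OE 2 and p27OE 3, so that the groups overlapped. The log2 fold change was 1.63 ± 0.78 (SE), or 3.09-fold (edgeR adjusted p = 0.246), with 1.15 at low and 2.18 at high Y-linked level. It was called with a term for the Y-linked level (edgeR adjusted p = 0.0163), with the replicate block (edgeR adjusted p = 0.0255), without EV control 1 (log2 fold change 2.86; edgeR adjusted p = 0.0401) and without both libraries numbered 1 (edgeR adjusted p = 0.0318). Without any one of the other 5 libraries it was not called, at a log2 fold change of 1.1 without p27OE 1, 1.16 without EV control 2 and up to 1.85 without p27OE 3.

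Aldh1a2, the main enzyme of the early embryo, was at 1.32, 1.33 and 1.83 CPM in p27OE 1, 2 and 3, against 3.23, 1.21 and 1.45 CPM in EV control 1, 2 and 3. EV control 1 stood above the other 5 libraries, EV control 2 lay below every p27OE library and EV control 3 fell among them. The log2 fold change was −0.39 ± 0.42 (SE), with an edgeR adjusted p of 0.61, and its sign turned to 0.15 without EV control 1. EV control 1 also had the highest sum of the macrophage markers, at 70.7 CPM against at most 30.3 CPM in the others. Its fibroblast, endothelial, adipocyte, and neural crest and glial sums were the highest as well. It had the lowest skeletal muscle, cartilage and bone, and mesothelial sums, the last at 26.9 CPM against 37.2 to 47.75 CPM. The mesothelial genes were split. Among the controls, Msln, Upk3b, Upk1b, Lrrn4 and Krt8 were highest in EV control 1, and Wt1, Krt19 and Krt18 lowest. The part of these markers in the Aldh1a2 values was not tested.

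Cyp26b1, which encodes the enzyme that clears retinoic acid in limb and skin mesenchyme, had higher values in p27OE. Cyp26b1 was at 32.6, 27.2 and 24.7 CPM in p27OE 1, 2 and 3, against 21.7, 21.9 and 20.8 CPM in EV control 1, 2 and 3. Every p27OE library lay above every EV control library, and the controls differed little among themselves. The mean was 28.2 ± 4.06 CPM in p27OE and 21.5 ± 0.567 CPM in EV control (SD, n = 3 each), a log2 fold change of 0.39 ± 0.12 (SE) that did not pass (edgeR adjusted p = 0.0978). It was 0.59 at low and 0.21 at high Y-linked level. With that level as a term it was called (edgeR adjusted p = 0.0207), as with the replicate block (edgeR adjusted p = 0.0435) and by DESeq2 (adjusted p = 0.0386).

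The other CYP26 genes were almost silent. Cyp26a1, whose promoter holds the repeat shown above, had 0 counts in every p27OE library, against 6, 0 and 0 counts in EV control 1, 2 and 3, and Cyp26c1 reached at most 2 counts in a library. The level of Cyp26b1 per kilobase was 1.16 ± 0.0337 times the summed level of the ALDH1A genes in p27OE and 1.104 ± 0.218 times in EV control (SD, n = 3 each), and the p27OE range of 1.13 to 1.2 lay inside that of EV control, 0.925 to 1.35.

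**Figure D3:**
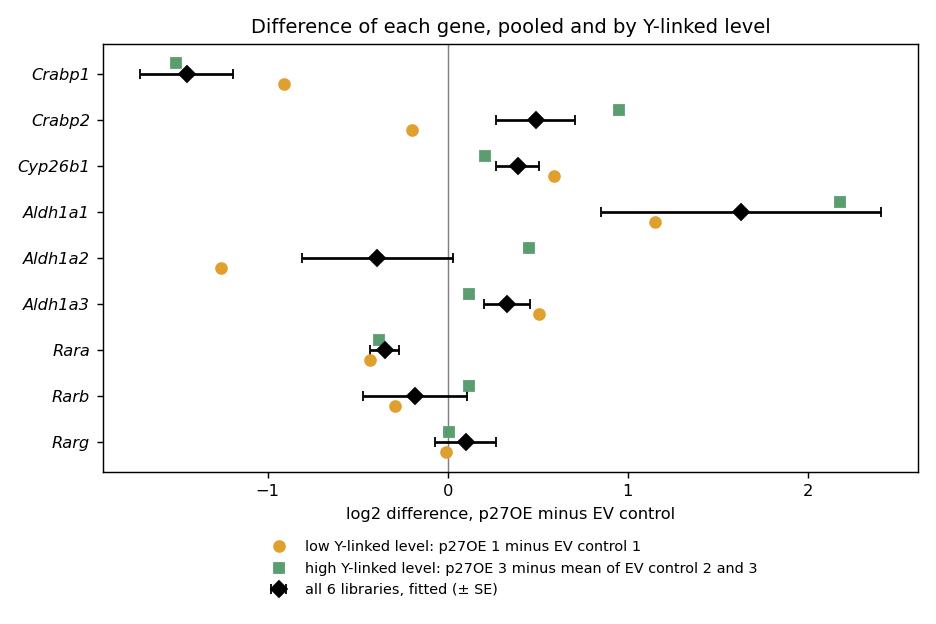
Log2 difference of each gene, p27OE minus EV control. Diamonds are fitted over all 6 libraries (± SE), circles compare the libraries of low Y-linked level and squares those of high level. Crabp1 chose the list, so its SE is no test. Crabp1 and Rara lay below 0 and Cyp26b1, Aldh1a1 and Aldh1a3 above 0 in all of these values, while Crabp2, Aldh1a2 and Rarb had opposite signs at the low and the high level and Rarg lay close to 0 at both, at −0.01 and 0.01.

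Crabp1, whose values chose the list, is left out of the counts that follow. In the fit over all genes, 0 of the other 8 passed at an adjusted p under 0.05 (edgeR), where 2.61% of all 13990 genes passed. At an unadjusted p under 0.05 stood 3 of the 8 (Rara, Aldh1a3 and Cyp26b1) and 26% of all genes. Without EV control 1, Aldh1a1 passed, 1 of the 8, where 12.9% of all genes did. Leaving out any one of the other 5 libraries gave 0 of the 8, with 1 or 2 genes called in the whole table. With a term for the Y-linked level, 3 of the 8 passed (Rara, Aldh1a1 and Cyp26b1), where 34% of all genes did. The replicate block gave the same 3, against 17.2% of all genes, and DESeq2 gave Rara and Cyp26b1, against 16.6%. Without both libraries numbered 1, Crabp2 and Aldh1a1 passed, where 16.7% of all genes did. The groups did not overlap for 2 of the 8 (Rara and Cyp26b1), against 33.3% of all genes tested. The median log2 fold change was 0.22 over the 8 genes and 0.01 over all genes tested. In bulk RNA, fewer cells of a type and less RNA per cell cannot be told apart, here and in every value above.

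Ordered by level per kilobase, the genes fell into the same broad tiers in both groups. In p27OE the order was Crabp2 (104.0 ± 27.3 CPM per kilobase), Crabp1 (38.96 ± 4.82), Rarg (34.6 ± 5.11), Rara (10.4 ± 0.591), Cyp26b1 (5.26 ± 0.759), Aldh1a3 (3.41 ± 0.413), Aldh1a2 (0.66 ± 0.128), Aldh1a1 (0.449 ± 0.234) and Rarb (0.331 ± 0.0997; SD, n = 3). In EV control, Crabp1 came first (106.2 ± 35.3 CPM per kilobase), ahead of Crabp2 (74.2 ± 12.3), and Rarb (0.374 ± 0.0626) stood above Aldh1a1 (0.148 ± 0.15); the genes between them kept their places. Library ranges overlapped for 3 neighbouring pairs in p27OE (Crabp1 and Rarg, Aldh1a2 and Aldh1a1, Aldh1a1 and Rarb) and for 2 in EV control (Crabp1 and Crabp2, Rarb and Aldh1a1). Among all genes tested, Crabp1 stood at the 91.5th percentile of level per kilobase in p27OE and at the 97.3rd in EV control.

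The wider pathway was read from a list of 55 genes, of which 54 were in the table and 41 were tested. Dhrs3 rose, 1 of 41, where 1.77% of all genes tested were called higher, and 0 of 41 fell, where 0.843% were called lower (edgeR). At an unadjusted p under 0.05 stood 7 of the 41 and 26% of all genes. DESeq2 called 5 of the 41, where it called 16.6% of all genes, and with a term for the Y-linked level 8 of the 41 passed, where 34% of all genes did. The groups did not overlap for 9 of the 41, against 33.3% of all genes. Dhrs3 encodes the reductase that turns retinaldehyde back to retinol, which limits synthesis, and it is known to be induced by retinoic acid. Dhrs3 was at 70.8, 65.4 and 63.9 CPM in p27OE 1, 2 and 3, against 45.98, 36.9 and 37.7 CPM in EV control 1, 2 and 3. The groups stood well apart, with means of 66.7 ± 3.60 CPM in p27OE and 40.2 ± 5.02 CPM in EV control (SD, n = 3 each). Its log2 fold change was 0.73 ± 0.10 (SE), with an edgeR adjusted p of 0.0346, with 0.62 at low and 0.78 at high Y-linked level. Without p27OE 1, 2 or 3, or EV control 2 or 3, singly, it lost its call (edgeR adjusted p = 0.0715 to 0.189). Its log2 fold change was then 0.67 to 0.76. Only 1 or 2 genes of the whole table were called in each of these fits.

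Of the 13 tested enzymes between retinol and retinaldehyde, Dhrs3 included, 9 had a log2 fold change above 0, as did 7244 of all 13990 genes. Their median log2 fold change was 0.26, against 0.01 over all genes, with Dhrs3 the one called. Adh5, a widely expressed alcohol dehydrogenase, was at 90.6 ± 0.856 CPM in p27OE and 91.3 ± 0.769 CPM in EV control (SD, n = 3 each), and Rdh11, a retinal reductase, at 34.5 ± 2.19 CPM in p27OE and 36.1 ± 4.05 CPM in EV control. Rbp4, the carrier of retinol in blood, had a log2 fold change of −0.52 ± 0.29 (SE) without passing (edgeR adjusted p = 0.31).

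Fabp5, a fatty acid binding protein that can carry retinoic acid to another nuclear receptor, was lower in every p27OE library. Fabp5 was at 64.5, 75.85 and 85.6 CPM in p27OE 1, 2 and 3, against 107.0, 166.9 and 152.0 CPM in EV control 1, 2 and 3. The groups did not overlap, and EV control 1 was the lowest control, as for Crabp1. The log2 fold change was −0.91 ± 0.19 (SE) and did not pass (edgeR adjusted p = 0.056); it was −0.73 at low and −0.90 at high Y-linked level. Over the 16 alternatives its adjusted p ran from 0.000284 to 0.225, and it was called in 6: total count scaling, DESeq2, the replicate block, the Y-linked term, without EV control 1 and without both libraries numbered 1. Fabp5 has processed pseudogenes, so its count is uncertain.

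No partner receptor or co-regulator was called (edgeR), where 2.61% of all genes were. Rxra was at 80.6 ± 11.06 CPM in p27OE and 77.2 ± 14.07 CPM in EV control, and Rxrb at 48.99 ± 1.83 CPM in p27OE and 44.7 ± 4.79 CPM in EV control (SD, n = 3 each), with log2 fold changes of 0.06 ± 0.16 and 0.13 ± 0.09 (SE), and Rxrg had too few counts to be tested. The corepressor Ncor1 and the coactivator Ncoa2 had values of 0.05 ± 0.13 and 0.20 ± 0.19. The coactivator Ncoa7, named after its values were seen, was at 11.3 to 12.9 CPM in p27OE and at 14.8 to 15.6 CPM in EV control. Its groups did not overlap, and its log2 fold change of −0.33 ± 0.09 (SE) did not pass (edgeR adjusted p = 0.0879), though it was called by DESeq2 and with the Y-linked term. The orphan receptors Nr2f2, Nr2f6 and Nr2c2, which can bind the same repeats, had values of −0.11 ± 0.08, 0.13 ± 0.09 and −0.17 ± 0.10. None of these 3 passed (edgeR).

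Of 14 genes listed as responding to retinoic acid, 11 were tested, 6 above 0 and 5 below. None was called (edgeR), where 2.61% of all genes were. At an unadjusted p under 0.05 stood 2 of the 11 and 26% of all genes. DESeq2 called 1 of them, where it called 16.6% of all genes. The replicate block and the Y-linked term each called Rarres1 and Meis1, where they called 17.2% and 34% of all genes. Zfp503, a zinc finger repressor, and Tgm2, transglutaminase 2, had log2 fold changes of 0.17 ± 0.12 and 0.03 ± 0.65 (SE). Meis1, a HOX cofactor named after its values were seen, was at 11.4 to 12.6 CPM in p27OE and at 16.1 to 21.6 CPM in EV control. Its groups did not overlap, and its log2 fold change of −0.68 ± 0.13 (SE) did not pass (edgeR adjusted p = 0.0518). Over the 16 alternatives its adjusted p ran from 0.000352 to 0.216, and it was called in 7: no filter, the stricter filter, DESeq2, the replicate block, the Y-linked term, without EV control 1 and without both libraries numbered 1. Stra8, a germ cell gene, had 0 counts in all 6 libraries.

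**Figure D4:**
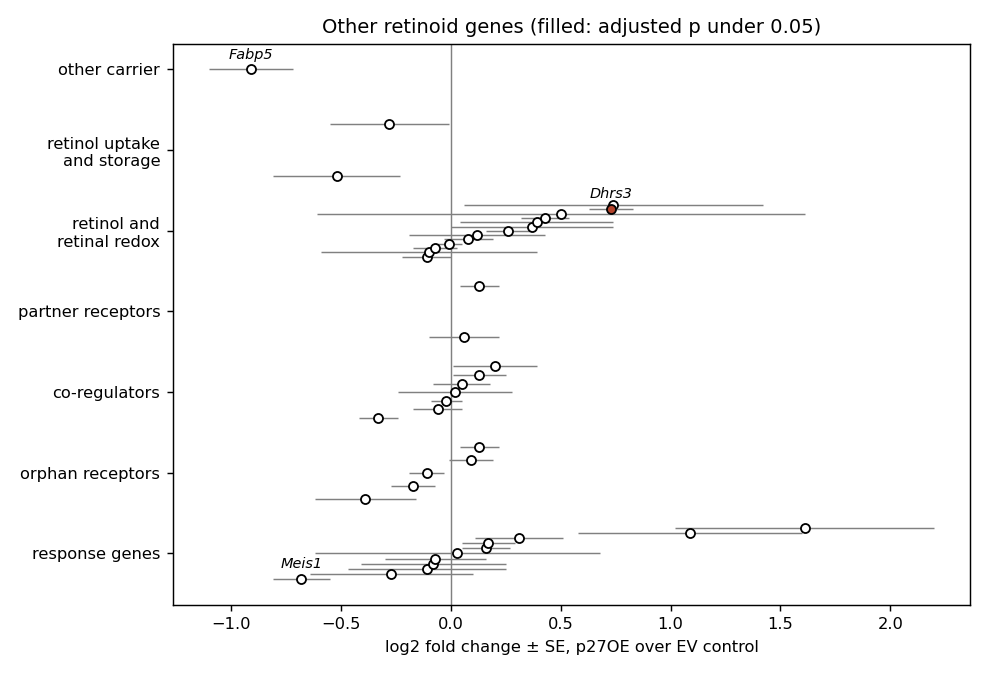
Log2 fold changes (± SE, p27OE over EV control) of the 41 tested genes of the wider list, grouped by role, with the gene called at an adjusted p under 0.05 filled. Dhrs3, at 0.73, is the filled point, while Fabp5 lies at −0.91 and Meis1 at −0.68 without passing.

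The genes whose log2 CPM ran most like Crabp1 over the 6 libraries were Cdv3, Atp5a1 (a subunit of ATP synthase), Atl2 (an endoplasmic reticulum GTPase), Eif3i (a translation initiation factor subunit) and Cul4b (a ubiquitin ligase scaffold), with Pearson's r of 0.998 for each, given as a description. In all 5, EV control 1 lay between the p27OE libraries and the other controls. These 5 were picked for running like Crabp1, so this place largely follows from the choice. Of 10335 genes compared, 793 had an r of at least 0.9 with Crabp1. Such an r does not fix the place of EV control 1, which was not counted over these genes. The 5 genes had much smaller differences, with log2 fold changes of −0.47 for Cdv3, −0.25 for Atp5a1, −0.26 for Atl2, −0.24 for Eif3i and −0.33 for Cul4b.

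Rara had the smallest p of the 8 genes other than Crabp1. Its most similar genes were Pdk1 (a pyruvate dehydrogenase kinase), Eif4ebp1 (a translation repressor), Mex3b (an RNA-binding protein), Ddit4 (an inhibitor of mTORC1) and Scd2 (a fatty acid desaturase), with r from 0.991 to 0.998 over the 6 libraries, and 528 of 10335 genes reached 0.9. Pdk1 was at 45.3, 50.03 and 37.1 CPM in p27OE 1, 2 and 3, against 116.0, 87.1 and 74.8 CPM in EV control 1, 2 and 3. In Rara and Pdk1 alike, p27OE 3 was the lowest library and EV control 1 the highest. Pdk1 was picked for running like Rara, so this likeness largely follows from the choice.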

How the data were processed

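The deposited table gives raw counts, whole numbers of reads for each gene symbol. Per the submitters' processing notes, the tools were featureCounts 1.4.6, Subread, Bowtie2 2.2.6 and TopHat2 2.0.14, with mm10; the annotation and strand setting are not given in the sources used here. Per the labels' protocols, libraries came from the TruSeq RNA Library Prep Kit v2. All 6 columns matched 1 sample each by title.

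From these counts, filterByExpr kept 13990 genes (99.976% of counts). TMM-scaled counts were tested in edgeR 4.0.16 (R 4.3.3; glmQLFit robust, glmQLFTest, two-sided, group as the only term), with Benjamini-Hochberg adjustment over all genes and a threshold of 0.05. The SE is the log2 fold change over the root of the F statistic. CPM used the TMM factors, and a prior count of 2 went into log2 CPM. Lengths and coordinates are from GENCODE M21 (GRCm38), where CPM per kilobase uses the union of all exons. Promoters are from RefSeq (GRCm38.p6). The test was checked on simulated counts. Libraries of a group differed by far more than sampling noise, with a chi-square per gene of 6.56 to 190.66. The smallest p of an exact test of 3 against 3 is 0.1, so none was used.

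Members and lists were chosen with earlier results of these data known. Named genes were the 9 members, Cdkn1b, called genes of the wider list with the 3 highest per role, and the 5 genes most like Crabp1 and most like the next member by p; of these, 3 are not reported here. Alternatives were other scalings and filters, DESeq2 1.42.0, limma-voom 3.58.1, the replicate number, the Y-linked level, and libraries left out.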

Additional observations from a re-analysis of the deposited data

How the results depend on the processing

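The 365 genes called became 2321 with DESeq2, 2410 with the replicate number as a block, 4761 with a term for the Y-linked level, 2334 without both libraries numbered 1 and 1 to 1827 when each library was left out. Of the 8 members other than Crabp1, 0 passed in the main fit, where 2.61% of all genes did. None passed with other scalings, other filters or limma-voom. DESeq2 called Rara and Cyp26b1 (16.6% of all genes). The block (17.2%) and the Y-linked term (34%) called Rara, Aldh1a1 and Cyp26b1. Without both libraries numbered 1, Crabp2 and Aldh1a1 passed (16.7%). Without EV control 1, Aldh1a1 passed (12.9%), and without any other single library none did. The wider list, with 1 of 41 called, had 2 of 41 with total counts, where 313 of all 13990 genes were called. It had 2 of 50 with no filter (317 of 18206 genes) and 2 of 37 with the stricter filter (497 of 12305 genes). DESeq2 and the block each called 5 (16.6% and 17.2% of all genes) and the Y-linked term 8 (34%). Without both libraries numbered 1, 4 were called (16.7%), and without EV control 1, 5 (12.9%). Without any other single library none was, where 1 or 2 genes were called in the whole table. The cause was not tested. Numbers 1, 2 and 3 correlated across groups with r = 0.669, 0.043 and 0.495 in their deviations over genes. The libraries numbered 1 thus went best with each other, while EV control 2 went best with p27OE 3 (0.555). The numbers therefore did not pair the libraries throughout, and what a shared number stands for was not tested. No called value of the 27 genes followed changed sign, and 13 values without a call did. Crabp1 lay between −1.72 and −1.27 in every alternative, given as a description because its values chose the list. Depth limits Aldh1a1, Aldh1a2 and Rarb, which rest on 12 to 164 counts a library.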

Other observations

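The next 2 genes of the wider list were picked after their values were seen. Rarres1, a retinoic acid responder gene known from skin, was at 19.6, 12.7 and 5.46 CPM in p27OE 1, 2 and 3, against 9.1, 4.02 and 4.72 CPM in EV control 1, 2 and 3. The library numbered 1 was the highest in each group, as for Aldh1a1 and Rarg, and the groups overlapped (log2 fold change 1.09 ± 0.51, SE; edgeR adjusted p = 0.24). Rarres1 was called with the replicate block and with the Y-linked term, and in no other alternative. Stra6, the cell surface receptor for retinol binding protein, had 4, 12 and 13 counts in p27OE 1, 2 and 3, against 0, 4 and 4 counts in EV control 1, 2 and 3, too few to be tested.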
